A study of Mus musculus with 8 samples.

Results

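The genes of meiotic double-strand break formation were followed as a set of 7 chosen for their function: *Spo11*, *Rec114*, *Mei1*, *Mei4*, *Ankrd31*, *Prdm9* and *Zcwpw1*. All 7 were found among the 21058 genes of the tables by their Entrez identifiers, and all 7 passed the filter on low counts together with 17643 genes in all. RNA was sequenced from pachytene spermatocytes of 4 *Arid1a* WT and 4 *Arid1a* cKO samples. Males of the *Arid1a* cKO group were fl/fl at *Arid1a* and carried the *Stra8-Cre* transgene, which is expressed in spermatogonia. The *Arid1a* WT males were *Arid1a* fl/fl or *Arid1a* fl/+ without Cre, so floxed alleles were present in both genotypes. The floxed allele was kept on a CD1 background, the males were adults, and cells of many testes were combined for each Sta-Put purification, which separates testis cells by sedimentation at unit gravity. The study describes excision as incomplete, with some pachytene spermatocytes of these males still expressing ARID1A. Nothing in the labels says that the 4 samples of a genotype came from separate purifications, and p-values therefore measure the spread between these samples, which may be technical.

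Meiotic recombination starts with programmed double-strand breaks in the DNA, made early in prophase I and mostly repaired by the end of the pachytene stage. SPO11 is the protein that cuts, in a complex with TOPOVIBL (gene *Top6bl*), and both resemble the subunits of a topoisomerase. REC114, MEI4, MEI1, IHO1 and ANKRD31 are accessory proteins that assemble on the chromosome axes, where HORMAD1 helps to hold them, and without REC114, MEI4, MEI1 or IHO1 breaks are largely lost. PRDM9 binds DNA through its zinc fingers and methylates histone H3 on lysines 4 and 36, which sets the places of the breaks, and ZCWPW1 reads this pair of marks and helps the breaks to be repaired.

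RefSeq promoter windows of GRCm38.p6 (250 bases before to 50 after an annotated start) were at hand for 6 of the 7 genes, in 8 windows, and *Spo11* had no entry. They are shown for the 3 genes that were higher in *Arid1a* cKO and held a searched motif, and for *Ankrd31*, which was lower and held none. The motifs were CNCCTCAG for STRA8 and MEIOSIN, which drive entry into meiosis, TAACNG for MYB factors and TTTCCCGC for E2F factors, each searched on both strands. Capitals mark the matches, each sequence runs 5′ to 3′ on the strand of the gene, and base 1 is the start.
*Prdm9* (chr17:15564305-15564604, minus strand): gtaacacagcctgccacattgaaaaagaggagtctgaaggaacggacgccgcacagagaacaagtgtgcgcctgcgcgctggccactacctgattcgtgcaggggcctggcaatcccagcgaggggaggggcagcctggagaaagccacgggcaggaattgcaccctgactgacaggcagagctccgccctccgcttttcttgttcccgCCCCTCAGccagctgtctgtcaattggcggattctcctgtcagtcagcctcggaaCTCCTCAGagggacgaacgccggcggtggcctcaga
*Mei4* (chr9:81863420-81863719, plus strand): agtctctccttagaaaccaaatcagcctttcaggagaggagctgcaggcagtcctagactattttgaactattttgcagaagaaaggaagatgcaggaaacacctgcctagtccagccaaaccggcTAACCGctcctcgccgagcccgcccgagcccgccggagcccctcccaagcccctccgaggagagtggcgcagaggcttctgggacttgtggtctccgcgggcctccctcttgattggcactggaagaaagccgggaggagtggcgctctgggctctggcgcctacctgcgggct
*Rec114* (chr9:58741510-58741809, minus strand): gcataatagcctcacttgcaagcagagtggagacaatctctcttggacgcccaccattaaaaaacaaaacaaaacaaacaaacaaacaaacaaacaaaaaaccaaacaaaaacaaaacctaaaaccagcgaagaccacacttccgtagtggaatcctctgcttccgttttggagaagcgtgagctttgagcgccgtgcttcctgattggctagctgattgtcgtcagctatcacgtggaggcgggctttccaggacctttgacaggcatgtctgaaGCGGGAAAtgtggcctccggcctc
*Ankrd31* (chr13:96748043-96748342, plus strand): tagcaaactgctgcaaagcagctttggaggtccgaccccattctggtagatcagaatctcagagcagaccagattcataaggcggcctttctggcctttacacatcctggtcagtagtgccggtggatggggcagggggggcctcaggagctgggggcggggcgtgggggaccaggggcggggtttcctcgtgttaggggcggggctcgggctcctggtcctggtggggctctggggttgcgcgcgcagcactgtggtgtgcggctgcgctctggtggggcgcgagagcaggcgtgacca

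This *Prdm9* window held the STRA8 and MEIOSIN motif at 2 places, beginning at bases -41 and 15, whereas the other *Prdm9* window held no match. A motif of this kind was present in 7.94% of all 32851 windows. In *Mei4* the MYB motif began at base -124, and 23.3% of windows held one. The E2F motif of *Rec114* began at base 27 on the opposite strand and was found in 1.07% of windows. No match was found in the windows of *Mei1*, *Ankrd31* or *Zcwpw1*. A match is a description of the sequence, and binding was not measured here.

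Libraries held 15850961 to 22044507 estimated counts. The targeted gene, *Arid1a*, was at 98.8 to 128 CPM (counts scaled for library size) in *Arid1a* WT and 76.4 to 82.9 CPM in *Arid1a* cKO, and fell by 0.51 on the log2 scale (SE 0.07, edgeR adjusted p = 2.31e-05). These counts cover the whole gene and not only the floxed exons, so they check the labels only in part. Of 10 pachytene spermatocyte markers, 7 fell, 2 rose (*Pgk2* and *Ccna1*) and 1 was not called. All 8 spermatid markers rose, and their summed level was 5455 to 6231 TPM (a level scaled for transcript length as well as depth) in *Arid1a* WT and 22539 to 24484 TPM in *Arid1a* cKO. All 6 Sertoli markers fell (437 to 505 against 113 to 119 TPM summed), as did all 5 Leydig markers (76.2 to 89.0 against 6.57 to 8.30 TPM). Of 9 preleptotene to zygotene markers measured, 7 rose by 0.58 to 2.32 on the log2 scale, and *Meioc* (-1.35) and *Meiob* (-0.19) fell (376 to 396 against 446 to 475 TPM summed). Spermatogonial markers rose in 6 of 8, fell in 1 (*Etv5*) and were not called in 1 (80.1 to 87.7 against 104 to 113 TPM), 3 of 4 macrophage markers rose (3.33 to 4.33 against 7.41 to 8.71 TPM), and 2 of 3 peritubular markers rose (4.57 to 7.73 against 6.78 to 7.87 TPM). These counts of markers stand beside 36.5% of all genes tested called higher and 37.5% called lower, so calls in a short list are common in this comparison. No marker was at 0 in all libraries. The part of these shifts in the results for the break formation genes was not tested, and in bulk RNA fewer cells of a type and less RNA per cell cannot be told apart.

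*Spo11* and *Ankrd31* were lower in *Arid1a* cKO spermatocytes, and *Prdm9*, *Mei1*, *Mei4*, *Rec114* and *Zcwpw1* were higher. The 7 genes thus moved in both directions, from a 6.40-fold fall of *Spo11* to a 3.33-fold rise of *Prdm9*. Each gene was tested with edgeR's quasi-likelihood test on all genes, with Benjamini-Hochberg adjustment and a threshold of 0.05. All 7 were called, 5 higher and 2 lower, where 74.0% of all genes tested were called (36.5% higher and 37.5% lower). The CPM of the genotypes did not overlap for any of the 7, which held for 68.9% of all genes tested (34.0% higher and 34.9% lower). The median absolute log2 fold change was 0.90 over the 7 genes and 0.76 over all genes, and the median signed change was 0.59 against -0.02. The number of calls alone therefore does not set these genes apart from the rest of this comparison.

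**Figure D1:**
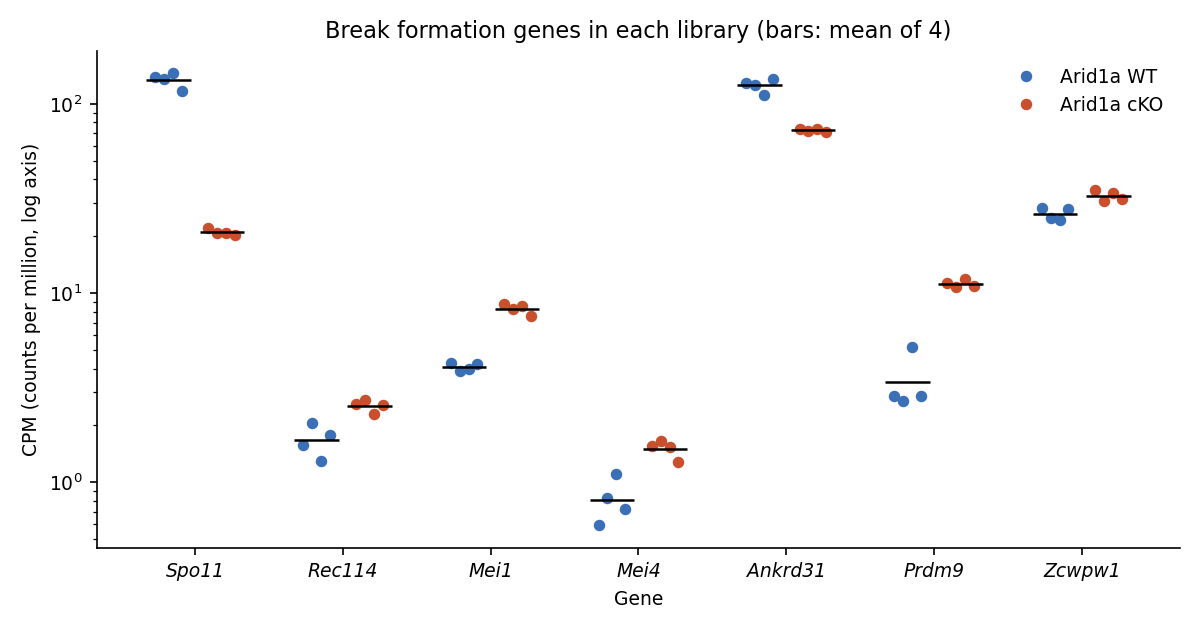
CPM of the 7 break formation genes in each library (points, log axis), with Arid1a WT in blue, Arid1a cKO in red and the mean of 4 libraries as a bar. The 4 cKO libraries lay below all WT libraries for Spo11 and Ankrd31 and above them for the other 5 genes, and 1 WT library of Prdm9 stood at 5.17 CPM.

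*Spo11* (Entrez 26972, chr2:172977379-172993576) encodes the break-forming enzyme. Its level was 139, 136, 145 and 117 CPM in *Arid1a* WT replicates 1 to 4 and 22.01, 20.8, 20.8 and 20.2 CPM in *Arid1a* cKO replicates 1 to 4. Every cKO library was far below every WT library, and the cKO libraries lay within 2 CPM of each other. The mean was 134 ± 12.3 CPM in WT and 21.0 ± 0.743 CPM in cKO (SD, n = 4 each). *Spo11* fell by 2.68 on the log2 scale (SE 0.07, edgeR adjusted p = 1.60e-13), and 0.930% of all genes tested had a lower log2 fold change. Its log2 fold change ranged from -2.83 to -2.64 over 18 alternative settings.

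The partner subunit of the same complex moved the other way. *Top6bl*, listed as *Gm960*, was at 1.98, 2.47, 2.16 and 2.27 CPM in WT and at 3.77, 3.996, 3.83 and 3.79 CPM in cKO. It rose 1.73-fold (log2 fold change 0.79, SE 0.13, edgeR adjusted p = 6.98e-05), with no overlap between genotypes. On the log2(TPM + 1) scale the difference was 0.45, and 0.37 in TPM rescaled to the genes listed. Both subunits are compared per length as TPM, and the ratio of *Spo11* to *Top6bl* within a library was 82.9, 62.7, 72.3 and 60.8 in WT. In cKO the ratio was 7.005, 6.004, 6.50 and 6.28. *Spo11* RNA thus remained above *Top6bl* RNA in every library, by a margin that was smaller in all 4 cKO libraries.

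*Ankrd31* (Entrez 625662, chr13:96748289-96909794) encodes a protein that binds REC114 and is needed for breaks in the pseudoautosomal region shared by X and Y. It was at 130, 126, 112 and 136 CPM in WT and at 73.8, 71.9, 73.6 and 70.7 CPM in cKO. All cKO libraries were below all WT libraries, and they varied less (126 ± 10.2 against 72.5 ± 1.46 CPM, SD, n = 4 each). *Ankrd31* fell by 0.80 on the log2 scale (SE 0.06, edgeR adjusted p = 1.37e-08), a 1.74-fold difference.

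*Iho1* and *Hormad1*, which place the accessory proteins on unsynapsed axes, were lower as well. *Iho1* was at 37.1 to 43.7 CPM in WT and 22.01 to 25.6 CPM in cKO (log2 fold change -0.82, SE 0.07, edgeR adjusted p = 5.37e-08). *Hormad1* was at 218 to 258 CPM in WT and 93.1 to 111 CPM in cKO (log2 fold change -1.20, SE 0.07, edgeR adjusted p = 5.76e-10). Because 36.3% of the 31-base words of *Hormad1* transcripts occur in other genes, its level is uncertain.

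REC114 and MEI4 bind each other, and both genes were weakly expressed. *Rec114* (Entrez 73673, chr9:58652856-58822706) had 32, 45, 26 and 39 counts in WT and 48, 48, 48 and 40 counts in cKO. Scaled to library size these were 1.58, 2.06, 1.30 and 1.77 CPM in WT and 2.58, 2.74, 2.30 and 2.57 CPM in cKO. Replicate 2 was the highest of the WT libraries and stood close to the lowest cKO library, with no overlap. *Rec114* rose 1.51-fold (log2 fold change 0.59, SE 0.17, edgeR adjusted p = 0.00668).

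The *Rec114* value carries a limit of its own. *Nptn*, which encodes the cell adhesion protein neuroplastin, lies on the opposite strand and overlaps 26.9% of the exonic bases of *Rec114*. *Nptn* was more abundant, at 18.6 ± 1.45 CPM in WT and 46.9 ± 1.67 CPM in cKO (SD, n = 4 each), and rose with a log2 fold change of 1.33 (SE 0.06, edgeR adjusted p = 8.32e-11). Whether counting used strand is not given in the sources used here, and without it reads of the overlap cannot be told apart.

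*Mei4* (Entrez 75033, chr9:81863670-82206007) was the lowest of the set, with 12, 18, 22 and 16 counts in WT and 29, 29, 32 and 20 counts in cKO. In CPM it was at 0.594, 0.823, 1.10 and 0.728 in WT and at 1.56, 1.66, 1.53 and 1.29 in cKO. Replicate 3 of WT was nearest to replicate 4 of cKO, and the genotypes did not overlap. *Mei4* rose 1.86-fold (log2 fold change 0.90, SE 0.23, edgeR adjusted p = 0.00257), and its SE was the widest of the 7. On the log2(TPM + 1) scale, which understates changes of low genes, the difference was 0.30. The TPM ratio of *Rec114* to *Mei4* was 4.32 to 10.1 in WT and 6.25 to 8.38 in cKO, so these overlapped between genotypes.

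*Mei1* (Entrez 74369, chr15:82070074-82126817) encodes a large protein needed for break formation in both sexes. It was at 4.26, 3.89, 3.96 and 4.23 CPM in WT and at 8.77, 8.22, 8.52 and 7.58 CPM in cKO. The libraries of each genotype lay close together (4.08 ± 0.187 and 8.27 ± 0.513 CPM, SD, n = 4 each). Its rise was 2.03-fold (log2 fold change 1.02, SE 0.10, edgeR adjusted p = 1.92e-07), and 21.4% of all genes tested had a higher log2 fold change. On the log2(TPM + 1) scale it was 0.65.

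*Prdm9* (Entrez 213389, chr17:15543072-15564374) showed the largest rise of the 7 genes. It was at 2.87, 2.70, 5.17 and 2.87 CPM in WT and at 11.4, 10.8, 11.9 and 10.9 CPM in cKO. Replicate 3 of WT stood well above the other WT libraries and still below every cKO library. *Prdm9* rose 3.33-fold (log2 fold change 1.73, SE 0.16, edgeR adjusted p = 2.12e-07), and 12.1% of all genes tested had a higher log2 fold change. Without WT replicate 3 the log2 fold change was 2.001.

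*Zcwpw1* (Entrez 381678, chr5:137787157-137822621) was the gene with the smallest difference. It was at 28.1, 25.1, 24.4 and 27.7 CPM in WT and at 34.9, 30.5, 34.1 and 31.4 CPM in cKO. The lowest cKO library was above the highest WT library by less than 3 CPM. In TPM the genotypes overlapped, at 19.39 to 22.13 in WT and 22.06 to 27.01 in cKO. *Zcwpw1* rose 1.25-fold (log2 fold change 0.32, SE 0.07, edgeR adjusted p = 6.42e-04). In TPM rescaled to the genes listed, an alternative chosen after seeing the data, its log2 fold change was 0.08 and was not called (limma adjusted p = 0.416). That scaling placed the median of all genes at -0.13, and *Zcwpw1* lay 0.21 above that median. *Pilra*, on the opposite strand, overlaps 8.22% of its exonic bases and was at 0.683 ± 0.633 CPM in WT and 1.15 ± 0.193 CPM in cKO (SD, n = 4 each).

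The TPM ratio of *Prdm9*, which writes the hotspot marks, to *Zcwpw1*, which reads them, was 0.0952, 0.118, 0.146 and 0.0681 in WT. In cKO it was 0.314, 0.374, 0.316 and 0.375. All cKO libraries were above all WT libraries, and the WT libraries varied more in proportion to their mean.

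Levels of different genes were compared per length, as TPM. The listed genes summed to 78.1% to 81.1% of each library's whole TPM in WT and to 88.1% to 88.6% in cKO, so TPM of the genotypes is not on quite the same footing, while orders and ratios within a library do not depend on it. In *Arid1a* WT the order from the highest was *Spo11* (108 ± 7.72 TPM), *Ankrd31* (38.3 ± 1.03), *Zcwpw1* (20.7 ± 1.18), *Rec114* (3.54 ± 0.630), *Prdm9* (2.20 ± 0.669), *Mei1* (1.53 ± 0.0734) and *Mei4* (0.468 ± 0.143; SD, n = 4 each). Neighbours in this order did not overlap, except *Rec114* with *Prdm9* and *Prdm9* with *Mei1*. In *Arid1a* cKO the order was *Zcwpw1* (24.3 ± 2.53 TPM), *Ankrd31* (18.7 ± 1.67), *Spo11* (16.1 ± 0.596), *Prdm9* (8.33 ± 0.122), *Rec114* (5.42 ± 0.396), *Mei1* (2.96 ± 0.146) and *Mei4* (0.803 ± 0.112; SD, n = 4 each), with no overlap between any neighbours. By mean TPM, *Spo11* thus went from the first place to the third, and *Prdm9* moved ahead of *Rec114*. In WT replicate 3, *Prdm9* (3.08 TPM) was already above *Rec114* (2.86 TPM).

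**Figure D2:**
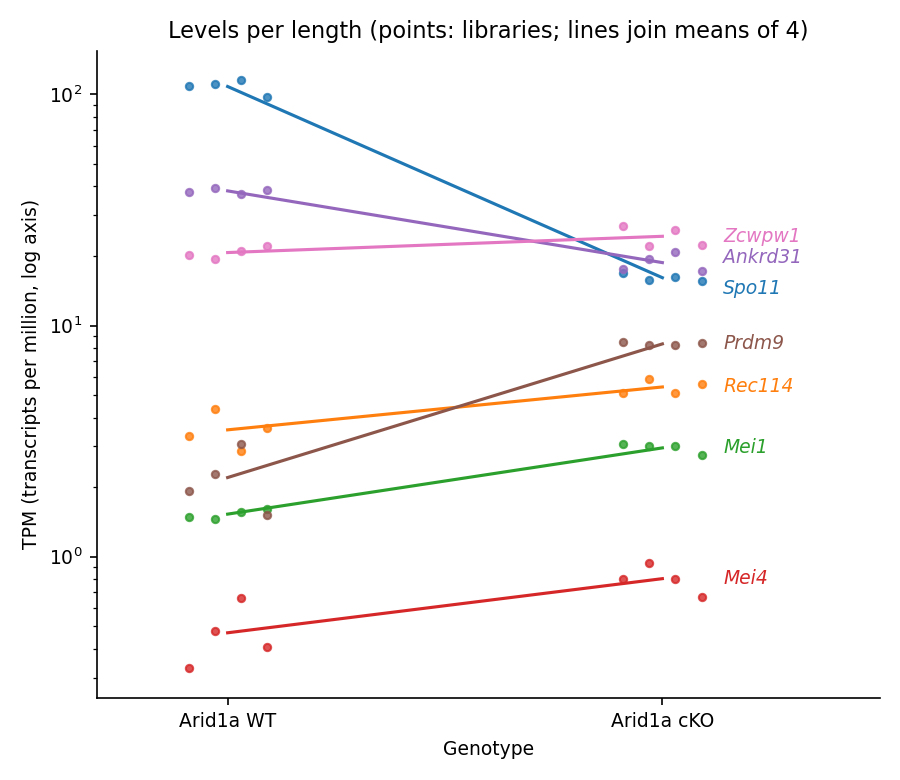
TPM of the 7 genes (log axis) in Arid1a WT and Arid1a cKO, with libraries as points and lines joining the means of 4. Spo11 led the set at 97.3 to 115 TPM in WT and lay below Zcwpw1 and Ankrd31 at 15.5 to 16.9 TPM in cKO, where Prdm9 was above Rec114 in every library.

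The summed TPM of the 7 genes was 165 to 182 in WT and 72.4 to 80.1 in cKO. *Spo11* made up 58.9% to 63.5% of that sum in WT and 20.3% to 21.5% in cKO. *Zcwpw1* made up 10.9% to 13.4% in WT and 29.3% to 34.2% in cKO, and *Prdm9* made up 0.912% to 1.70% and 10.3% to 11.6%. The share of *Ankrd31* overlapped between genotypes, at 20.4% to 23.4% in WT and 22.2% to 25.9% in cKO, although its own level fell.

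Genes that work with PRDM9 and ZCWPW1 were next. Of 7 chosen, *Zcwpw2* was not found by its Entrez identifier among the genes of the tables and has no value here. Of the other 6, 4 were called higher and 2 lower, where 74.0% of all genes tested were called. The median log2 fold change of these 6 was 0.20. *Cdyl*, a chromodomain protein that binds PRDM9, was at 67.8 to 74.1 CPM in WT and 280 to 301 CPM in cKO, and rose 4.05-fold (log2 fold change 2.02, SE 0.05, edgeR adjusted p = 8.83e-14). *Hells*, a chromatin remodeller that opens hotspots together with PRDM9, rose 1.32-fold (log2 fold change 0.40, SE 0.05, edgeR adjusted p = 1.01e-05). *Cxxc1*, which encodes the CpG-binding protein CFP1, fell by 0.44 on the log2 scale (SE 0.04, edgeR adjusted p = 3.49e-07).

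*Ewsr1*, an RNA-binding protein that links PRDM9 to the axis, fell by 0.37 (SE 0.05, edgeR adjusted p = 3.64e-06), and 24.0% of its 31-base words occur in other genes. Over the alternatives it ranged from -0.85 to -0.34, *Cxxc1* from -0.81 to -0.41 and *Hells* from 0.30 to 0.66. *Ehmt2*, a histone H3 lysine 9 methyltransferase, rose by 0.23 on the log2 scale (SE 0.05, edgeR adjusted p = 3.66e-04), and *Morc2b*, a meiotic gene of the MORC family of ATPases, by 0.17 (SE 0.07, edgeR adjusted p = 0.0402). Both turned to a lower call in TPM rescaled to the genes listed (-0.13 and -0.14), where the median of all genes was also -0.13. *Ehmt2* was not called by limma on log2(TPM + 1) or log2(TPM + 0.1) (0.024 on both, limma adjusted p = 0.628 and 0.635). *Morc2b* was not called with library size without TMM (0.072, edgeR adjusted p = 0.211), with offsets for transcript length (0.10, edgeR adjusted p = 0.217) or by either TPM fit (0.0080 on both, limma adjusted p = 0.907). The genotypes overlapped for *Morc2b*, which kept its call with a library left out only when that was WT replicate 4.

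Break control and the first steps of repair were followed in 6 genes, of which 2 were called higher, 3 lower and 1 was not called, beside 36.5% higher and 37.5% lower over all genes tested. *Atm*, the kinase that limits further breaks once SPO11 has cut, was at 12.8 to 17.7 CPM in WT and 25.1 to 28.3 CPM in cKO and rose 1.73-fold (log2 fold change 0.79, SE 0.09, edgeR adjusted p = 1.20e-06). The 3 genes of the MRN complex, which trims the broken ends, differed from one another. *Rad50* fell by 0.82 (SE 0.07, edgeR adjusted p = 8.43e-08), *Nbn* rose by 0.31 (SE 0.07, edgeR adjusted p = 0.00172), and *Mre11*, listed as *Mre11a*, had a log2 fold change of -0.03 (SE 0.05, edgeR adjusted p = 0.619). With library size without TMM *Mre11* was called lower (-0.13, edgeR adjusted p = 0.0147).

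*Exo1*, the exonuclease that lengthens the resected ends, fell by 0.58 (SE 0.07, edgeR adjusted p = 6.55e-06), but its direction turned with offsets for transcript length (0.043), and it was not called by limma on log2(TPM + 1) (-0.047, limma adjusted p = 0.659) or log2(TPM + 0.1) (-0.049, limma adjusted p = 0.656), nor in TPM rescaled to the genes listed (-0.19, limma adjusted p = 0.0767). *Rbbp8*, which encodes the MRN cofactor CtIP, fell by 0.21 (SE 0.07, edgeR adjusted p = 0.0141), with overlap between genotypes, and lost its call without WT replicate 4 (-0.13, edgeR adjusted p = 0.0554) and with DESeq2 (-0.18, DESeq2 adjusted p = 0.0523). *Atm* and *Nbn* were not called in TPM rescaled to the genes listed (0.29 and 0.025, limma adjusted p = 0.0955 and 0.740). Over all 15 partner genes measured, 7 were called higher, 7 lower and 1 was not called, and 74.0% of all genes tested were called (36.5% higher and 37.5% lower). Their median log2 fold change was -0.03, beside -0.02 for all genes tested.

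**Figure D3:**
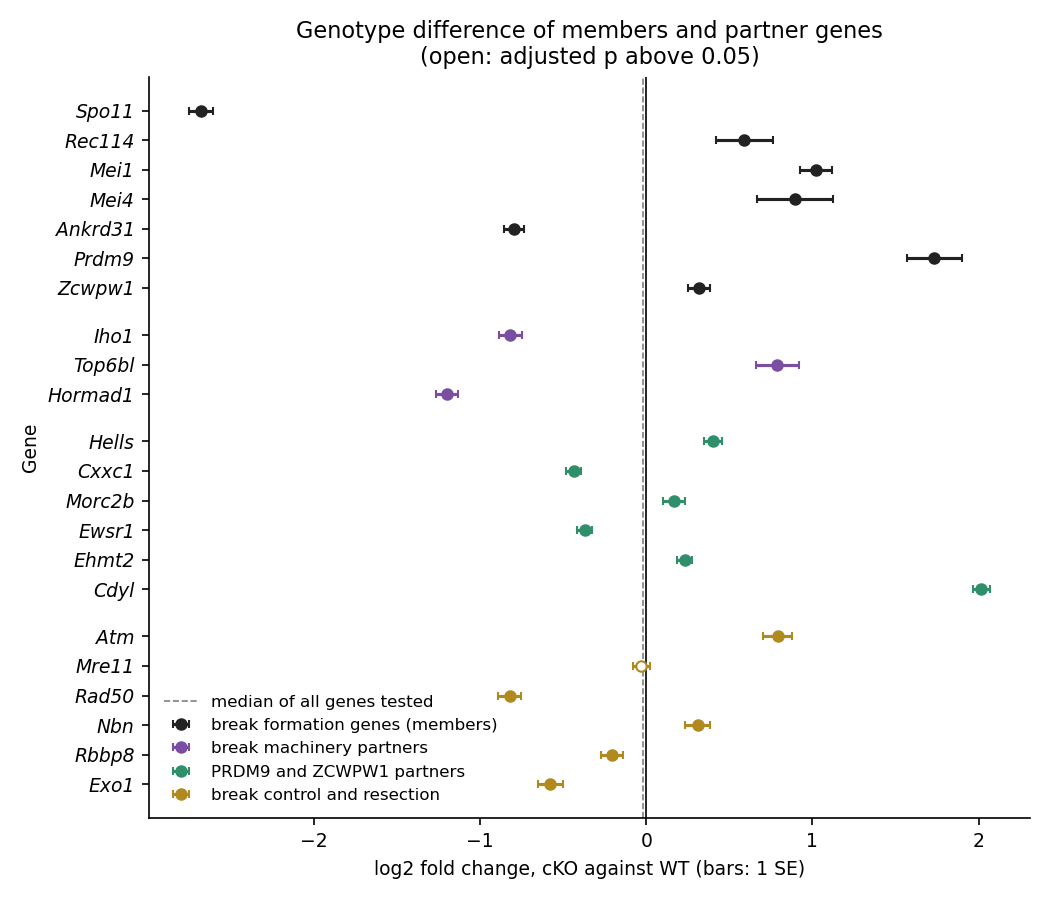
Log2 fold change of Arid1a cKO against Arid1a WT for the 7 break formation genes and 15 partner genes, with bars of 1 SE, filled points for adjusted p of 0.05 or less and a dashed line at the median of all genes tested (-0.02). Spo11 (-2.68) and Cdyl (2.02) lie at the ends, and each group of genes holds both rises and falls.

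The estimated count divided by TPM is proportional to the mean effective length of the transcripts counted for a gene. It was compared with limma over 13958 genes as a reading of the mix of transcripts. The library medians of the 1443 genes with 1 annotated transcript were on average 0.055 higher in cKO on the log2 scale. The measure thus also moved where the annotation leaves no mix to change. Of the 7 genes, only *Ankrd31* was called, as longer in cKO by 0.17 on the log2 scale (SE 0.05, limma adjusted p = 0.0392). In this comparison 50.8% of all genes were called (40.8% as longer), and when libraries were centred on the 1443 genes with 1 transcript, an alternative chosen after seeing the data, the share was 15.6% and *Ankrd31* was not called (0.11, limma adjusted p = 0.242). The call of *Ankrd31* was also lost when WT replicate 1, 2 or 3 or cKO replicate 1 or 4 was left out. Centred on genes with 1 transcript, *Rec114* was called as shorter (-0.14, limma adjusted p = 0.0238), as it was without WT replicate 1 (-0.11) or cKO replicate 1 (-0.12). *Mei4* was called without cKO replicate 2 (0.07) and *Prdm9* without WT replicate 2 (-0.38). *Prdm9* differed by -0.27 (SE 0.13, limma adjusted p = 0.140), and *Spo11* by -0.0042 (SE 0.03, limma adjusted p = 0.931). Annotated coding transcripts of *Spo11* are 1591 to 1709 bases long, so a switch between them would move this measure little. The *Spo11* value therefore does not show whether its mix of transcripts changed.

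The genes whose centred log2 CPM over the 8 libraries came nearest to each break formation gene, by root mean square difference over 12997 genes, were named as a description. For *Spo11* they were *Tmem30c* (0.0567), *9330102E08Rik* (0.0752) and *Ankrd10* (0.0760). For *Ankrd31* they were *Tbc1d1* (0.0225), *Pithd1* (0.0304) and *Ift140* (0.0306), and for *Zcwpw1* they were *Cd55b* (0.0405), *Acr* (0.0411) and *Mrpl1* (0.0415). Nearest to *Mei1* were *Xrn2* (0.0298), *Nrd1* (0.0346) and *App* (0.0393). For *Rec114* they were *Cables1* (0.102), *C1d* (0.108) and *Macrod1* (0.115), and *E2f3* (0.0754), *Cpne3* (0.0944) and *Lrrc8c* (0.0986) for *Mei4*. *Prdm9* was nearest to *Odf3b* (0.0933), *Adssl1* (0.101) and *Elapor2* (0.101). None of the 7 genes was among the 3 nearest of another, and *Mei4* was itself below the level searched.

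**Figure D4:**
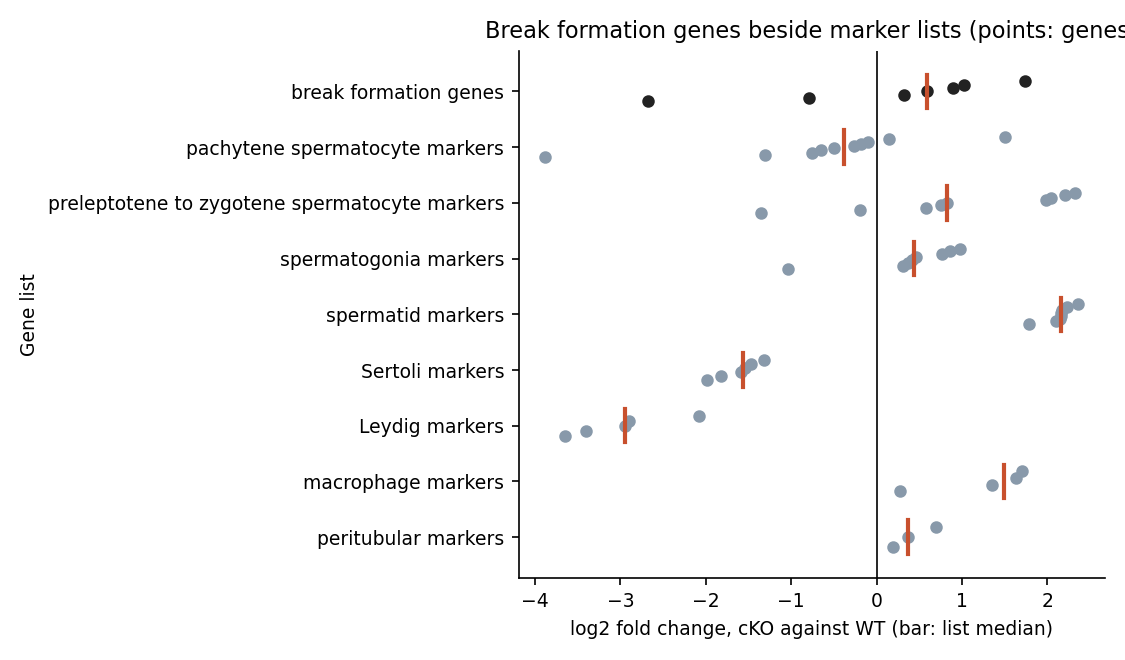
Log2 fold change of Arid1a cKO against Arid1a WT for the 7 break formation genes and for the markers of 8 cell types (points), with the list median as a red bar. The break formation genes spread from -2.68 to 1.73 around a median of 0.59, while all spermatid markers lie above 0 and all Sertoli and Leydig markers below 0.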

How the data were processed

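RNA-seq libraries of pachytene spermatocytes were made with a Kapa mRNA HyperPrep kit. The authors ran Salmon and tximport with the mm10 annotation and deposited estimated counts per gene, not scaled for depth or length. The authors also deposited TPM, scaled to the whole library. A table of the authors' own comparison, with fold changes and p-values from DESeq2, was not used. Symbols and coordinates came from RefSeq GRCm38.p6 (21036 of 21058 genes matched). Shared 31-base words and exon overlap came from GENCODE transcripts.

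Estimated counts were rounded, and genes with at least 10 summed counts were tested with edgeR 4.0.16 (TMM, glmQLFit and glmQLFTest, genotype only, Benjamini-Hochberg, adjusted p of 0.05 or less). SE was the absolute log2 fold change over the root of the F statistic. CPM used TMM-adjusted library sizes. Length was tested with limma 3.58.1 on log2(count / TPM), for genes with at least 10 counts in every library. On simulated counts with 200 of 17643 genes changed 2-fold, edgeR recovered 83.5% of them, and 5.65% of its calls were false. That simulation changed few genes and gave every gene the same dispersion, whereas 74.0% of all genes tested were called in the real comparison. Its rates therefore check that the fit runs properly and do not give the share of false calls here. Tables and plots were made in R 4.3.3 and Python 3.11.15. Alternatives were DESeq2 1.42.0, other scalings and filters, length offsets, limma on log2(TPM + 1) and log2(TPM + 0.1), a replicate block, and each library left out.

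The break formation genes and all lists were chosen with earlier results of these data known. The genes named were these 7, *Arid1a*, the partner lists and, for each of the 7, the 3 genes nearest in pattern (average log2 CPM 1 or higher). Markers named, *Nptn* and *Pilra* were chosen after their values were seen.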

Additional observations from a re-analysis of the deposited data

Results flagged for a closer look

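In 74 groups of 4 libraries, 5 held a library that stood apart by Dixon's ratio, the gap to the nearest library divided by the range of the group. Chance gives about 1 in 20, or 3.70 such groups. *Prdm9* was at 5.17 CPM in *Arid1a* WT replicate 3 against 2.70 to 2.87 CPM in the other WT libraries (ratio 0.930). The relative transcript length of *Mei4* was 1.11 in *Arid1a* cKO replicate 2 against 1.21 in the other cKO libraries (ratio 0.914). That of *Prdm9* was 0.918 in *Arid1a* cKO replicate 3 against 0.819 to 0.833 (ratio 0.853). Among partner genes, *Hells* was at 76.3 CPM in *Arid1a* cKO replicate 1 against 69.0 to 69.4 CPM (ratio 0.956), and *Cxxc1* was at 101 CPM in *Arid1a* WT replicate 3 against 104 to 105 CPM (ratio 0.855).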

How the results depend on the processing

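Over 18 alternatives, 125 of 126 values of the 7 genes and 242 of 270 values of the partner genes kept their direction and their side of the threshold. The 7 genes kept their direction in all 126. Log2 fold changes ranged from -2.83 to -2.64 for *Spo11*, 0.40 to 0.71 for *Rec114*, 0.57 to 1.06 for *Mei1*, 0.27 to 1.07 for *Mei4*, -1.15 to -0.74 for *Ankrd31*, 1.49 to 2.04 for *Prdm9* and 0.075 to 0.36 for *Zcwpw1*. In TPM rescaled to the genes listed, *Zcwpw1* was not called (0.075) and 3 partner genes were called higher. The median of all genes was -0.13 in that fit, -0.05 by limma on log2(TPM + 1) without rescaling and -0.02 by edgeR, and *Morc2b* (-0.14) and *Ehmt2* (-0.13) reversed in rescaled TPM. *Mre11* reversed with length offsets (0.15), limma on log2(TPM + 1) (0.059) and on log2(TPM + 0.1) (0.060), and ranged from -0.049 to 0.015 with a library left out. With library size without TMM it was called lower (-0.13). *Exo1* reversed with length offsets (0.043). The length shift of *Ankrd31* ranged from 0.13 to 0.21 with a library left out, where 5 of 8 fits made no call. It was not called when centred on genes with 1 transcript (0.11). Length shifts that were not called and changed sign were those of *Spo11* (0.0031 with at least 50 counts, -0.032 to 0.023 with a library left out), *Mei1* (-0.031 to 0.0041), *Mei4* (-0.020 when centred on genes with 1 transcript) and *Zcwpw1* (-0.043 with that centring, -0.013 to 0.037 with a library left out). *Rec114* and *Mei4* rest on 12 to 48 counts a library. The cause of these changes was not tested.

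The labels do not say whether same-numbered libraries of the genotypes have more in common than a number. Their deviations correlated across genes at 0.20, 0.04, 0.09 and -0.09, and 1 of 4 numbers was its own best match. With the replicate number as a block, 6429 genes were called higher and 6671 lower, and the 7 genes kept their calls, with *Prdm9* at 1.75 and *Spo11* at -2.68.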
